A study of Rattus norvegicus with 63 samples.

Results

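Kidney RNA of rats killed 5 h or 5.5 h after they were injected with the synthetic glucocorticoid methylprednisolone was compared with kidney RNA of untreated rats (0 h). Of the 63 arrays of the series 10 were compared, chosen by their labels: 4 untreated arrays and 3 for each of the later times, all of the main array type. One further array at 5 h, a repeat of replicate 1 whose control probe sets mark degraded RNA, was left out. Each time was set against 0 h, and so was the mean of both. The series follows the same treatment over 17 times, 0 h included, and arrays of the other times entered the fit, 52 in all, which sets the estimate of the spread. Every probe set of the main type was considered. All samples are rat kidney, with no other treatment, genotype or tissue fraction named. The labels name neither the dose, the strain, the age, the sex nor the hour of day, so time since injection and hour of day cannot be told apart. They do not say that numbered samples are separate animals, so p-values measure only how far these samples spread, which may be technical in origin.

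Glucocorticoids diffuse into cells and bind the glucocorticoid receptor, which moves to the nucleus and binds DNA at short inverted repeats or tethers to other transcription factors. Direct targets are switched on or off within hours. In the kidney these hormones are known to raise glucose and ammonia production in the proximal tubule, to act on sodium and potassium handling in the distal nephron, to lower phosphate reabsorption and to damp inflammation.

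Values are intensities scaled per array by the authors, here called signals. A difference is between means of log2(signal + 7.55), and is given with its standard error (SE). It understates the change of dim probe sets, and a fold is the same difference on a linear scale. Of 15866 probe sets, 9520 were bright enough over all times to be tested. Adjusted p-values are from limma with Benjamini-Hochberg adjustment over these, and a probe set passed below 0.05. Every value rests on 4 arrays at 0 h and 3 at each later time, unless an alternative fit is named. Replicates are listed in the order of their numbers.

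The median signal of the 10 arrays ranged from 73.0 to 81.4. The ratio of the 3′ to the 5′ control probe set of Gapdh, a measure of RNA integrity, lay between 1.04 and 1.34 in them, against 47.5 on the array left out. That of actin lay between 1.21 and 2.09, against 27.9. That of hexokinase ran otherwise: 1.39 to 20.0, the highest on 5 h replicate 1, against 2.39 on the array left out. One array stood apart: 5 h replicate 2 was more than 1 log2 unit above all 5 other arrays of 5 and 5.5 h in 166 probe sets and as far below them in 159. Each of the other 5 arrays led in this way in 0 to 5 probe sets and trailed in 2 to 30. Its Gapdh ratio was 1.18. Results without it are given where that ended a call, and for counts and passing genes where it moved the value by over 1.5 times. They are also given for named genes where it lay far from the rest. Differences of genes that did not pass include it unless stated.

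For the mean of both times, 472 probe sets were higher than at 0 h (4.96% of those tested) and 412 were lower (4.33%), from 383 and 343 genes. Of the increases, 145 exceeded 1 log2 unit, and of the decreases, 64. Above 2 log2 units these numbers were 32 and 1. All 6 treated arrays lay above all 4 untreated ones in 4.08% of probe sets and below them in 4.59%. At 5 h alone 326 were higher (3.42%) and 330 lower (3.47%), and at 5.5 h alone 318 were higher (3.34%) and 222 lower (2.33%). Both times share the 4 arrays at 0 h. These counts depended on the fit: with the compared groups alone they were 306 and 235 for the mean and 102 and 68 at 5 h, and with array weights 578 and 550 at 5.5 h and 209 lower at 5 h. Without 5 h replicate 2, the mean gave 416 higher and 285 lower, of which 365 and 270 had also passed with it. The 5 h comparison fell to 216 higher and 118 lower.

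Genes known to be induced by glucocorticoids moved together. Of 27 tested, 24 rose and 0 fell, against 4.96% of all probe sets, with a median difference of 2.30 against -0.03 over all probe sets. At 5 h alone 20 of the 27 rose and at 5.5 h alone 21. The list was chosen for this response, so its count is no independent evidence of direction. The summed signal of its 30 genes on the array ranged from 8561 to 11228 at 0 h and from 24862 to 36994 at 5 and 5.5 h.

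Fkbp5 encodes a cochaperone that lowers the receptor's affinity for hormone. Its signals were 49.0, 59.8, 69.3 and 39.5 at 0 h, 647, 464 and 739 at 5 h and 599, 552 and 499 at 5.5 h. Every treated array was far above every untreated one, and Fkbp5 rose by 3.26 ± 0.19, 9.59-fold (adjusted p = 1.5e-16). Tsc22d3, also called GILZ, carries part of the anti-inflammatory action of glucocorticoids. It read 297, 318, 205 and 347 at 0 h, 1273, 1089.7 and 1395 at 5 h and 1706, 1591 and 1675 at 5.5 h, a rise of 2.30 ± 0.16 (adjusted p = 6.58e-14). All treated arrays were more than 3 times the highest untreated one. Dusp1, a phosphatase that switches off MAP kinases, rose by 2.47 ± 0.28, and Errfi1, an inhibitor of the EGF receptor, by 1.71 ± 0.19.

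Nfkbia encodes IκBα, which holds NF-κB in the cytoplasm, and gave 35.7, 64.5, 31.7 and 70.1 at 0 h, 247, 657 and 343 at 5 h and 556, 394 and 477 at 5.5 h. The lowest treated array was over 3 times the highest untreated one. The rise was 2.96 ± 0.40 (adjusted p = 9.67e-07). Zfp36, which promotes the decay of cytokine mRNAs, rose by 2.10 ± 0.30, with 5 h replicate 2 the highest at a signal of 1640. Spsb1 encodes an adaptor of an E3 ubiquitin ligase that marks the inducible nitric oxide synthase for breakdown. Its signals were 7.77, 21.1, 6.56 and 5.92 at 0 h, 193, 397 and 313 at 5 h and 288, 342 and 314 at 5.5 h. At 0 h 3 of 4 arrays lay near the pseudocount, and the rise of 4.18 ± 0.45 (adjusted p = 3.96e-09) became 3.05 with 4 times the pseudocount.

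Transcription factors of this list rose too. Cebpb and Cebpd are C/EBP factors of the acute-phase response. Cebpb had signals of 11.8, 61.3, 50.6 and 71.0 at 0 h, 145, 1113 and 248 at 5 h and 191, 250 and 350.4 at 5.5 h, and 5 h replicate 2 was over 3 times the next array. Its rise of 2.62 ± 0.56 (adjusted p = 0.00133) was 2.20 without that array (adjusted p = 0.00773). Cebpd read 75.9, 76.6, 44.1 and 61.7 at 0 h, 155, 708 and 131 at 5 h and 131, 222 and 209.8 at 5.5 h. Its rise of 1.63 ± 0.46 passed (adjusted p = 0.0157) but did not without 5 h replicate 2 (1.26, adjusted p = 0.0799). Klf9 and Klf15 are Krüppel-like factors known as direct receptor targets, and Klf15 promotes amino acid breakdown. They rose by 0.97 ± 0.19 and 1.02 ± 0.28. For Klf15 the array 5 h replicate 2 had the lowest treated signal, 267, inside the 0 h range of 196 to 396.

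Sgk1 encodes a kinase that raises sodium reabsorption through the epithelial channel. With signals of 473, 429, 403 and 720.5 at 0 h, 3369.6, 3423 and 3807 at 5 h and 3369, 3851 and 2982 at 5.5 h, it was bright at 0 h and rose by 2.79 ± 0.19, 6.92-fold (adjusted p = 1.12e-14). The 6 treated arrays spanned only 2982 to 3851. Rasd1, a dexamethasone-induced small GTPase, was dim at 0 h, with signals of 27.4, 5.06, 9.94 and 17.2 at 0 h, 74.4, 814 and 67.8 at 5 h and 88.3, 114 and 89.0 at 5.5 h. The 5 treated arrays other than 5 h replicate 2 ranged from 67.8 to 114, and that one read 814. Its rise was 2.68 ± 0.66 (adjusted p = 0.00563) and 2.11 without that array (adjusted p = 0.0312), or 1.86 with 4 times the pseudocount. At 5.5 h alone it did not pass (difference 2.31, adjusted p = 0.0761).

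The 3 tested members of the list that did not pass were Cdkn1c, Angptl4 and Pdk4. Pdk4, a kinase that shuts pyruvate out of the citric acid cycle, had a difference of 0.83 ± 0.29 (adjusted p = 0.0669). Angptl4, an inhibitor of lipoprotein lipase, ranged from 27.5 to 171 at 0 h. At 5 and 5.5 h its lowest, median and highest signals were 96.1, 184 and 1462, and the difference was 2.03 ± 0.77 (adjusted p = 0.0911). Cdkn1c, a cyclin-dependent kinase inhibitor, had a difference of 0.46 ± 0.20 (adjusted p = 0.164), which passed without 5 h replicate 2 (0.65, adjusted p = 0.0288). Glul was at the other edge: its rise of 0.37 ± 0.12 (adjusted p = 0.0464) did not pass without that array (adjusted p = 0.0870). Tat, Mt1 and Pik3r1 were too dim to be tested. Tat, the classical glucocorticoid-induced enzyme of liver, had signals of at most 5.14 on all 10 arrays.

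**Figure D1:**
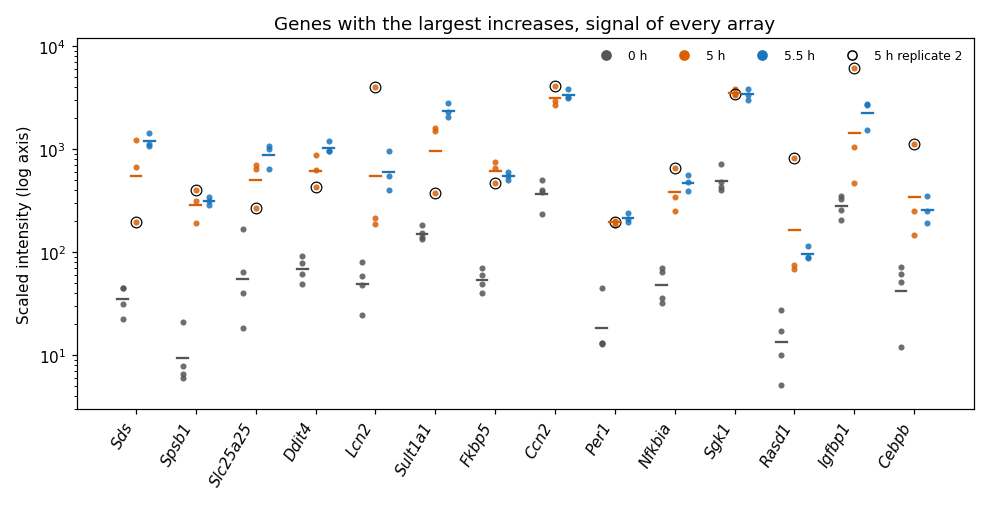
Signals of the 14 genes with the largest increases, log axis, one point per array and a bar at the back-transformed log2 mean of each group (0 h grey, n = 4; 5 h orange, n = 3; 5.5 h blue, n = 3), with 5 h replicate 2 circled. In each gene all 6 treated points lie above all 4 untreated points; 5 h replicate 2 is the highest treated array for Lcn2, Rasd1, Igfbp1 and Cebpb, among others, and the lowest for Sds and Sult1a1, among others.

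RefSeq promoter windows on the assembly GRCr8, from 250 bases before to 50 bases after each start site, were searched for the receptor's own motif and for the cAMP response element. Windows were held for 13 of the 14 genes with the largest increases (15 windows) and 13 of the 14 with the largest decreases (14 windows); Sds and Slc16a6 had none. The receptor's inverted repeat, GNACA and TGTNC with any 3 bases between them on either strand, was in 0.439% of 33469 windows and in 0 windows of either group. Its core ACANNNTGT, also on either strand, which every full repeat also contains, was in 6.86% of all windows, in 1 of the 15 and in 1 of the 14. The cAMP response element TGACGTCA was in 1.83% of all windows, in 1 of the 15 and in 0 of the 14. The 3 windows with a match are shown because they belong to genes named here as rising (Lcn2, Slc25a25) or falling (Nlrp6); capitals mark the matches, and a match is a description of letters only.
Lcn2, chr3:36081731-36082030, minus strand: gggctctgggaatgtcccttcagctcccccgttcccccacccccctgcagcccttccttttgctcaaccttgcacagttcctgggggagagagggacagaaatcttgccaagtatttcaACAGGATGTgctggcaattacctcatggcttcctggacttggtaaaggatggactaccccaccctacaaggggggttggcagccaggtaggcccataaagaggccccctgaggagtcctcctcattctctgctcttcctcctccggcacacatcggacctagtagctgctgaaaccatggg
Slc25a25, chr3:36116532-36116831, minus strand: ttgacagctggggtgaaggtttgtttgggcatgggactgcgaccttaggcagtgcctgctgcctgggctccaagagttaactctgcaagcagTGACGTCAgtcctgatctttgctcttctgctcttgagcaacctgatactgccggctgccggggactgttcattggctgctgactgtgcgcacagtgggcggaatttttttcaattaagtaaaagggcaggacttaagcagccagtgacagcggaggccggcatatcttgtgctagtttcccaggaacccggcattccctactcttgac
Nlrp6, chr1:205434234-205434533, plus strand: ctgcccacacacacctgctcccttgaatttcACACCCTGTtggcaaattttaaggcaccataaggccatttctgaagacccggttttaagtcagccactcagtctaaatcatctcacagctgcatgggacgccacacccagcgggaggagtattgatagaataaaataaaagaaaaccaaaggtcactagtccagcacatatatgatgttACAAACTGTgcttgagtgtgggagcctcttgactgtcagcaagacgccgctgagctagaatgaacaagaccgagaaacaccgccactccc

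Sds encodes serine dehydratase, which turns serine into pyruvate for glucose production. Its signals were 44.9, 22.5, 44.7 and 30.9 at 0 h, 674, 194 and 1222 at 5 h and 1109.7, 1431 and 1066 at 5.5 h. Here 5 h replicate 2 was the lowest of the 6 and still over 4 times the highest untreated array. Sds rose by 4.27 ± 0.38, 19.3-fold (adjusted p = 5.11e-11). Sult1a1, a sulfotransferase that conjugates phenols, read 152, 140.0, 132 and 181 at 0 h, 1608, 370.0 and 1486 at 5 h and 2306, 2788 and 2039 at 5.5 h. It rose by 3.26 ± 0.29 (adjusted p = 5.11e-11), with 5 h replicate 2 again the lowest treated array; without it the rises of Sds and Sult1a1 were 4.63 and 3.60.

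Of 26 tested genes of amino acid and polyamine catabolism, 5 rose (4.96% of all probe sets) and 5 fell (4.33%), with a median of -0.17; without 5 h replicate 2 these were 5 and 2. Besides Sds, the increases were Prodh (proline dehydrogenase, 1.45 ± 0.36), Odc1 (ornithine decarboxylase, which makes putrescine, 1.51 ± 0.25), Got1 (cytosolic aspartate aminotransferase, 1.22 ± 0.25) and Arg2 (mitochondrial arginase, 0.76 ± 0.16). Prodh read 58.5 to 71.9 at 0 h and 220.3 to 310.1 in 5 treated arrays, while 5 h replicate 2 read 46.0; the rise was 1.81 without it. Odc1 gave 652, 892, 666 and 597 at 0 h, 2179, 1359 and 2423 at 5 h and 2062, 1931 and 2197 at 5.5 h, with no overlap between groups.

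Kmo, Kynu and Haao, successive enzymes of the kynurenine pathway of tryptophan, fell by 0.60, 0.65 and 0.55. None of these 3 passed without 5 h replicate 2 (adjusted p = 0.0720, 0.0605 and 0.148). Shmt1, which links serine and glycine to folate, fell by 0.58, and Bckdhb, a subunit of the branched-chain keto acid dehydrogenase, by 0.70; both still passed without it.

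Of 12 tested genes of gluconeogenesis and ammoniagenesis, 2 rose (Got1 and Glul, glutamine synthetase) and 1 fell, Slc38a3, against 4.96% higher and 4.33% lower of all probe sets. Glul did not pass without 5 h replicate 2. Pck1, the cytosolic PEP carboxykinase that limits the rate of glucose production, ranged from 2873 to 3510.3 at 0 h. Its lowest, median and highest treated signals were 1669.8, 4201 and 4906, a difference of 0.17 ± 0.18 (95% interval -0.18 to 0.53, adjusted p = 0.634). Fbp1, fructose-1,6-bisphosphatase, had a difference of -0.03 ± 0.12 (interval -0.27 to 0.21). Slc38a3, the glutamine transporter that feeds ammonia production, read 120.0, 196, 125 and 172 at 0 h, 90.3, 52.8 and 124 at 5 h and 34.6, 53.2 and 84.3 at 5.5 h. One treated array overlapped the untreated range, and it fell by 1.06 ± 0.28 (adjusted p = 0.00884).

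Among 22 tested glutathione and conjugation enzymes, 4 rose and 2 fell, against 4.96% higher and 4.33% lower of all probe sets. The glutathione transferases Gstm1 and Gstm2 rose by 2.41 ± 0.48 and 1.35 ± 0.29, and the sulfotransferase Sult1b1 by 0.91 ± 0.23. Gclc encodes the catalytic subunit of the enzyme that starts glutathione synthesis. Its 2 tested probe sets fell by 1.54 ± 0.39 (adjusted p = 0.00719) and by 1.12. Without 5 h replicate 2 these probe sets fell by 1.23 and 0.85 (adjusted p = 0.0371 and 0.0358). The first read 3117, 3290.2, 2256 and 3015 at 0 h, 1299, 469.5 and 2159 at 5 h and 890.1, 897 and 899 at 5.5 h, so all treated arrays lay below the lowest untreated one. The glutathione transferase Gstp1 fell by 0.88, which did not pass without 5 h replicate 2 (adjusted p = 0.0793). Of 17 cytochrome P450 genes and their reductases, 3 rose and 0 fell, against the same shares. Por, the reductase that supplies electrons to all microsomal P450s, gave 228, 303, 276 and 245 at 0 h, 983, 594 and 1695 at 5 h and 1131, 1361 and 1523 at 5.5 h, a rise of 2.11 ± 0.20 (adjusted p = 2.93e-10). Cyp4a8, an arachidonic acid hydroxylase of the rat, rose by 0.78 ± 0.12, and Cyp27a1, a sterol hydroxylase, by 0.63 ± 0.18. Cyp1a1, the dioxin-induced P450, had signals of 32.2, 28.5, 18.8 and 38.2 at 0 h, 201, 3.53 and 286 at 5 h and 47.5, 122 and 203 at 5.5 h. It passed only without 5 h replicate 2, its lowest array (2.22, adjusted p = 0.00780, against 1.47 and 0.165 with it).

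Of 27 genes of fatty acid oxidation and its switches, 3 rose and 2 fell, with a median of 0.03, against 4.96% and 4.33% of all probe sets. Pnpla2, the triglyceride lipase ATGL, read 167, 227, 281 and 204 at 0 h, 817, 805 and 757 at 5 h and 835, 897 and 1122 at 5.5 h and rose by 1.96 ± 0.13 (adjusted p = 9.12e-15), without overlap. The fatty acid transporter Cd36 rose by 1.60 ± 0.40 and the mitochondrial carrier Ucp2 by 0.81 ± 0.24. Pdp2, the phosphatase that activates pyruvate dehydrogenase, fell by 1.29 ± 0.23, while the electron carrier subunit Etfb fell by 0.53 and did not pass without 5 h replicate 2. The oxidation enzymes themselves, such as Cpt1a (0.42 ± 0.20, adjusted p = 0.204) and Acadm (-0.25 ± 0.14, adjusted p = 0.318), did not pass. Of 19 genes of cholesterol and lipid synthesis, 2 rose and 0 fell, against the same shares. These were Insig1, which retains the sterol sensor in the endoplasmic reticulum (1.91 ± 0.31), and the fatty acid elongase Elovl6 (1.47 ± 0.29). Slc25a25 is a mitochondrial carrier of ATP-Mg and phosphate whose window holds the TGACGTCA match. It read 167, 63.3, 18.2 and 39.7 at 0 h, 694, 269 and 646 at 5 h and 1067, 1002 and 638 at 5.5 h. It rose by 3.42 ± 0.51 (adjusted p = 4.81e-06), and by 3.64 without 5 h replicate 2, its lowest treated array.

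Of 13 clock genes tested, 3 rose and 2 fell, with and without 5 h replicate 2, against 4.96% and 4.33% of all probe sets. Per1, a repressor of the clock and a known receptor target, gave 12.9, 44.7, 13.2 and 13.1 at 0 h, 201, 196 and 184 at 5 h and 208, 241 and 195 at 5.5 h. The 6 treated arrays lay within 183.6 to 240.8, and 3 of the 4 untreated ones within 12.9 to 13.2. It rose by 3.02 ± 0.35 (adjusted p = 3.57e-08), or by 2.23 with 4 times the pseudocount, since it was dim at 0 h. Per2 rose by 0.63 ± 0.21 and the clock-controlled deubiquitinase Usp2 by 1.89 ± 0.37. Usp2 read 129, 159, 120.1 and 130.1 at 0 h, 722, 63.4 and 1106 at 5 h and 682, 749.7 and 678 at 5.5 h: in 5 treated arrays it was at least 4 times the highest untreated signal, and in 5 h replicate 2 it was below the lowest. Without that array the rise was 2.50 (adjusted p = 3.51e-11).

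Dbp, an output factor of the clock, went the other way, with signals of 143, 236, 200.1 and 153 at 0 h, 85.8, 5.37 and 84.7 at 5 h and 39.3, 37.8 and 89.1 at 5.5 h. All treated arrays were below all untreated ones, 5 h replicate 2 the lowest, and Dbp fell by 1.81 ± 0.43 (adjusted p = 0.00390). The decrease was 1.34 without that array (adjusted p = 0.0220). Nr1d1, the repressor REV-ERBα, fell by 0.83. Bmal1 and Clock, the activators at the centre of the loop, had differences of 0.26 ± 0.18 and -0.26 ± 0.14 (adjusted p = 0.427 and 0.280).

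Of 30 proximal tubule transport genes tested, 1 rose and 4 fell, against 4.96% and 4.33% of all probe sets, with a median difference of -0.31 (-0.21 without 5 h replicate 2). Slc16a6, a monocarboxylate transporter, read 159.9, 142, 154 and 210.2 at 0 h, 47.5, 32.0 and 60.8 at 5 h and 43.4, 38.4 and 30.4 at 5.5 h on its more strongly changed probe set. No treated array reached the untreated range, and it fell by 1.82 ± 0.18 (adjusted p = 5.29e-10); its other probe set fell by 1.18. The related Slc16a1 fell by 0.94, the sulfate exchanger Slc26a1 by 0.56 and the peptidase Anpep by 0.43, the last not passing without 5 h replicate 2. Cubn, a receptor for filtered protein, rose by 0.62 ± 0.15. Its partner Lrp2, megalin, had a difference of 0.01 ± 0.11 (interval -0.21 to 0.23), and the water channel Aqp1 one of -0.05 ± 0.12 (interval -0.30 to 0.20).

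The organic anion and cation transporters, which move drugs and metabolites across the proximal tubule, had 4 of 11 tested genes lower and 0 higher, against 4.33% lower of all probe sets, with a median of -0.47 against -0.03. Without 5 h replicate 2, 3 were lower. Slc22a6 (OAT1) read 1442, 1216, 1560.4 and 1499 at 0 h, 992, 987 and 1064 at 5 h and 960.1, 914 and 987 at 5.5 h and fell by 0.53 ± 0.16 (adjusted p = 0.0233). All 6 treated arrays were below the untreated 4. Slc22a8 (OAT3) fell by 0.48, the carnitine transporter Slc22a5 by 0.56 and the prostaglandin transporter Slco2a1 by 0.83. Without 5 h replicate 2, Slc22a8 did not pass (adjusted p = 0.0677).

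Phosphate and calcium handling gave 1 gene higher and 4 lower of 13 tested, against 4.96% and 4.33% of all probe sets, and 0 and 2 without 5 h replicate 2. Pth1r, the receptor for parathyroid hormone, which lowers phosphate reabsorption and raises that of calcium, read 745, 1056, 871 and 1271 at 0 h, 373, 224 and 418 at 5 h and 241, 265 and 430.3 at 5.5 h. It fell by 1.60 ± 0.24, 3.03-fold lower (adjusted p = 7.3e-06), with no overlap. A second, dimmer probe set had a difference of -0.29 (adjusted p = 0.303). Slc34a1, the main sodium-phosphate cotransporter, was uncertain, because its probe sets disagreed. One read 1292, 1678, 1524 and 1637 at 0 h, 739, 107 and 898 at 5 h and 429, 563 and 839.9 at 5.5 h and fell by 1.61 ± 0.43 (adjusted p = 0.0112), but did not pass without 5 h replicate 2 (adjusted p = 0.0639) or at 5.5 h alone (adjusted p = 0.125). The brighter one ranged from 3740 to 5160 at 0 h and from 3691 to 4153 after treatment, with a difference of -0.10 (interval -0.34 to 0.13).

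Cldn10, a claudin that forms pores between tubule cells, gave 1008, 802, 871 and 767 at 0 h, 312, 391.6 and 407 at 5 h and 362, 256 and 297 at 5.5 h. No treated array came near the lowest untreated one, and Cldn10 fell by 1.34 ± 0.15 (adjusted p = 1.8e-08). The calcium-sensing receptor Casr and the sodium-calcium exchanger Slc8a1 fell by 1.16 and 1.32. Both had their lowest signal in 5 h replicate 2, 12.8 and 35.3, and did not pass without it (adjusted p = 0.139 and 0.0837). The claudin Cldn2 rose by 0.36 ± 0.11, not passing without it either.

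In the distal nephron 2 of 19 sodium and potassium transport genes rose, Sgk1 and Scnn1a, and 3 fell. Of all probe sets, 4.96% were higher and 4.33% lower. Scnn1a encodes the α subunit of the epithelial sodium channel and read 107, 140.1, 149 and 288 at 0 h, 358, 224 and 472 at 5 h and 255, 401 and 585 at 5.5 h. It rose by 1.15 ± 0.29 (adjusted p = 0.00594), although 0 h replicate 4 was above 2 of the treated arrays. The β and γ subunits Scnn1b and Scnn1g had differences of -0.28 ± 0.11 and -0.06 ± 0.17 and did not pass. The potassium channel subunit Kcnj16 fell by 0.75. The kinase Sgk2 and the mineralocorticoid receptor Nr3c2 fell by 1.04 and 0.65 and did not pass without 5 h replicate 2. Among 10 genes of water transport and vasopressin signalling only the aquaglyceroporin Aqp7 passed, with a decrease of 0.41. Of 7 renin-angiotensin and vasoactive genes 0 rose and 2 fell, against the same shares of all probe sets. The angiotensin receptor Agtr1a fell by 0.62 and the prostaglandin receptor Ptger3 by 0.61, the latter not without 5 h replicate 2.

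**Figure D2:**
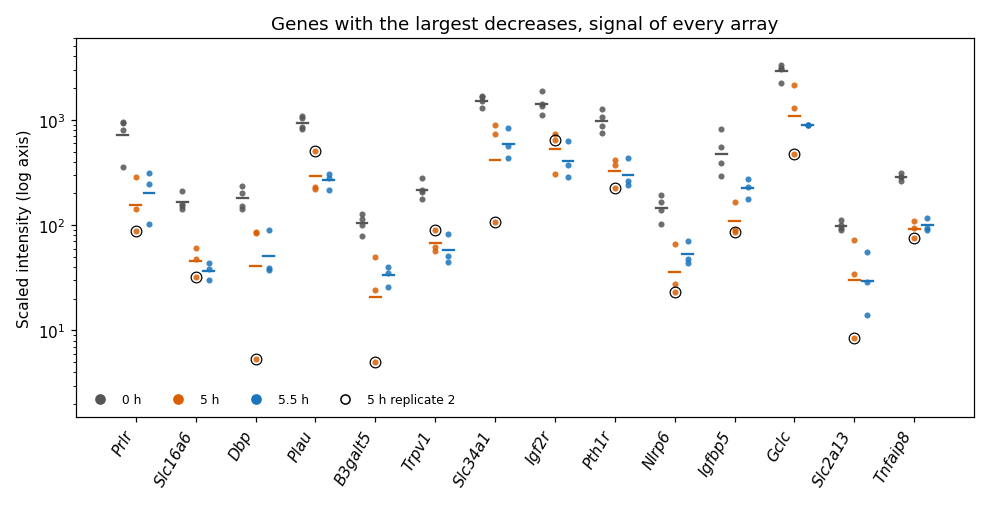
Signals of the 14 genes with the largest decreases, log axis, one point per array and a bar at the back-transformed log2 mean of each group (0 h grey, n = 4; 5 h orange, n = 3; 5.5 h blue, n = 3), with 5 h replicate 2 circled. In each gene all 6 treated points lie below all 4 untreated points; 5 h replicate 2 is the lowest treated array for Dbp, B3galt5, Slc34a1, Gclc and Slc2a13, among others, and the highest for Plau and Trpv1.

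Receptors were among the other genes with the largest decreases. Prlr, the prolactin receptor, had signals of 927, 957, 808 and 354 at 0 h, 141, 88.5 and 287 at 5 h and 313, 247 and 102 at 5.5 h on the probe set with the largest change, a fall of 1.97 ± 0.34 (adjusted p = 6.74e-05). Its other probe sets had differences of -0.09 and -0.65, which did not pass (adjusted p = 0.845 and 0.0854). Igf2r, the receptor that delivers lysosomal enzymes to lysosomes and insulin-like growth factor 2 to its breakdown there, read 1122, 1404, 1366 and 1868 at 0 h, 308, 644 and 727 at 5 h and 284, 374 and 626 at 5.5 h. It fell by 1.60 ± 0.25 (adjusted p = 9.57e-06), and its other probe set by 1.41. Trpv1, the capsaicin receptor channel, fell by 1.66 ± 0.27, with treated signals of 44.8 to 90.7 against 175 to 277. A second probe set of Trpv1 fell by 0.70 (adjusted p = 0.0226), with overlapping groups.

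Plau encodes urokinase, the protease that activates plasminogen and is made by tubule cells. It gave 846, 1083, 827 and 1030.4 at 0 h, 229.9, 504 and 219 at 5 h and 282, 216 and 308 at 5.5 h. Here 5 h replicate 2 was the highest treated array, and Plau fell by 1.72 ± 0.26 (adjusted p = 8.62e-06) and by 1.91 without it. Its second probe set fell by 1.53. Tnfaip8, an inhibitor of cell death, read 261 to 312 at 0 h, and its lowest, median and highest treated signals were 75.3, 93.9 and 117. It fell by 1.51 ± 0.26 (adjusted p = 7.05e-05). Nlrp6, a sensor protein of inflammasomes, fell by 1.59 ± 0.25; its window, shown above, holds 2 matches to the core ACANNNTGT. B3galt5, a galactosyltransferase, fell by 1.70 ± 0.28, and by 1.41 without 5 h replicate 2, where it read 4.99. The myo-inositol transporter Slc2a13 fell by 1.52 ± 0.37 (adjusted p = 0.00533). Without that array, where it read 8.44, the decrease of Slc2a13 was 1.21 (adjusted p = 0.0292). Both genes were dim after treatment, and with 4 times the pseudocount the decreases were 1.20 and 1.06. The second probe set of Slc2a13 had a difference of -0.32 (adjusted p = 0.299).

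The insulin-like growth factor system showed changes in both directions, 3 higher and 2 lower of 11 tested. Of all probe sets, 4.96% were higher and 4.33% lower. Igfbp1, a binding protein known to be induced by glucocorticoids, read 348, 254, 327 and 205 at 0 h, 1054, 6056 and 467 at 5 h and 2724, 2668 and 1541 at 5.5 h. Every treated array was above the untreated ones, but they spread over more than 10 times, and the rise was 2.66 ± 0.69 (adjusted p = 0.00813), or 2.15 without 5 h replicate 2 (adjusted p = 0.0415). At 5 h alone it did not pass (adjusted p = 0.0727). Igfbp3 rose by 0.75 ± 0.22 and Igfbp4 by 0.61 ± 0.19, the latter not without 5 h replicate 2. Igfbp5 fell: its brightest probe set went from between 1326 and 1501 at 0 h to between 398 and 805, a decrease of 1.36 (adjusted p = 7.96e-09). A dimmer probe set fell by 1.57 ± 0.36 (adjusted p = 0.00254).

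Of 16 tested genes of mTOR signalling, autophagy and protein breakdown, 7 rose and 0 fell, with and without 5 h replicate 2, against 4.96% and 4.33% of all probe sets. Ddit4 encodes REDD1, an inhibitor of mTORC1. Its signals were 61.6, 77.7, 49.3 and 90.6 at 0 h, 619, 429.5 and 873 at 5 h and 954, 960.0 and 1187 at 5.5 h, a rise of 3.41 ± 0.36, 10.6-fold (adjusted p = 3.58e-09), with no overlap. Foxo3, a transcription factor of autophagy and atrophy genes, gave 215, 276, 246 and 312 at 0 h, 571, 488 and 517 at 5 h and 537, 589 and 676 at 5.5 h and rose by 1.09 ± 0.14 (adjusted p = 5.89e-07). The autophagy genes Depp1, Bnip3 and Gabarapl1 rose by 1.57 ± 0.24, 0.93 ± 0.16 and 0.49 ± 0.14. Tsc22d3 and Usp2, named above with other lists, are counted among these 7 as well. The lists were chosen with earlier results of these data known, so this count is no independent evidence. The muscle ubiquitin ligases Fbxo32 and Trim63 were too dim to be tested. Among 17 genes of the cell cycle and its brakes, 3 rose and 1 fell, against the same shares. Cdkn1a, the inhibitor p21, rose by 1.95 ± 0.35, beside Ddit4 and Errfi1, which are both named above. The kinase Cdk4 fell by 0.54.

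Matrix genes were led by Ccn2, connective tissue growth factor. It read 235, 401, 382 and 500.2 at 0 h, 2648, 4088 and 2898 at 5 h and 3191, 3844 and 3117 at 5.5 h and rose by 3.13 ± 0.22, 8.73-fold (adjusted p = 5.91e-14), with all treated arrays over 5 times the highest untreated one. In all, 4 of 27 tested matrix and cross-linking genes rose and 0 fell, against 4.96% and 4.33% of all probe sets. Lox, which cross-links collagen, rose by 1.57 ± 0.29, Mgp, an inhibitor of calcification, by 1.26 ± 0.20, and the proteoglycan Dcn by 1.02 ± 0.34, which did not pass without 5 h replicate 2. The fibrillar collagens Col1a1, Col1a2 and Col3a1 had differences of -0.10, 0.20 and 0.45 and did not pass.

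In whole tissue, fewer cells of a type and less RNA per cell cannot be told apart. Of 8 podocyte markers 3 fell and 0 rose, with and without 5 h replicate 2, against 4.33% lower of all probe sets, with a median of -0.32 against -0.03. Synpo, the podocyte actin regulator synaptopodin, gave 371, 401, 499.8 and 399 at 0 h, 208, 149 and 210.4 at 5 h and 155, 194 and 256 at 5.5 h and fell by 1.08 ± 0.14 (adjusted p = 2.61e-07). The transcription factor Wt1 fell by 0.66 and the filament protein Nes by 0.50. Nphs1, the slit protein nephrin and a defining marker, had a difference of -0.05 ± 0.22 (interval -0.49 to 0.38). The summed signal of the 8 genes ranged from 1959 to 2730 at 0 h and from 1703 to 2435 after treatment.

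Of 11 endothelial markers 3 fell and 0 rose, with and without 5 h replicate 2, against the same 4.33%. Kdr, the main receptor for VEGF-A, read 368, 398, 564 and 525 at 0 h, 272, 80.3 and 211 at 5 h and 285, 201 and 303 at 5.5 h and fell by 1.10 ± 0.25 (adjusted p = 0.00238). Tie1, a receptor kinase, fell by 0.98. Esm1, a VEGF-induced proteoglycan, read 106, 119, 186 and 221 at 0 h, 43.8, 198 and 30.5 at 5 h and 28.1, 21.5 and 46.7 at 5.5 h and fell by 1.58 ± 0.34; 5 h replicate 2 alone lay in the untreated range, and the decrease was 1.95 without it. Pecam1, a pan-endothelial marker, had a difference of 0.22 ± 0.19 (interval -0.16 to 0.60). Summed over 14 genes, the signal ranged from 2287 to 2891 at 0 h and from 1737 to 2511 after treatment. Of 7 smooth muscle and pericyte markers 0 passed in either direction (limma; 0 at an unadjusted p under 0.05).

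Macrophage and neutrophil markers were higher in 6 of 12 tested (4 without 5 h replicate 2) and lower in 0, against 4.96% higher of all probe sets. C1qb, a chain of complement C1q made by macrophages, gave 75.1, 69.6, 50.5 and 112 at 0 h, 214, 209 and 144 at 5 h and 218, 219.8 and 264 at 5.5 h, a rise of 1.40 ± 0.23 (adjusted p = 2.06e-05) without overlap. C1qc and C1qa rose by 0.91 ± 0.19 and 0.82 ± 0.22, and the lysozyme Lyz2 by 0.60 ± 0.14. The neutrophil protein S100a9 read 4.15, 14.6, 9.45 and 23.1 at 0 h, 37.5, 774 and 35.6 at 5 h and 125, 128 and 65.5 at 5.5 h. Its rise of 2.55 ± 0.76 did not pass without 5 h replicate 2 (adjusted p = 0.124), nor did that of Fcer1g, an Fc receptor chain (0.72 ± 0.22, adjusted p = 0.0759 without). Cd68 and Csf1r, defining markers of macrophages, had differences of 0.18 ± 0.27 and 0.21 ± 0.20 and did not pass. The summed signal of 14 such genes ranged from 4366 to 4945 at 0 h and from 5222 to 7447 after treatment, with 5 h replicate 2 the highest. The part of these cells in the other results was not tested. Of 3 tested lymphocyte markers none passed for the mean of both times (limma, 0 at an unadjusted p under 0.05). At 5.5 h alone 1 was lower, against 2.33% of all probe sets. Cd3e had signals of at most 27.1.

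Of 14 tested cytokines, chemokines and adhesion molecules 0 rose and 0 fell for the mean of both times (limma, 3 at an unadjusted p under 0.05). At 5.5 h alone 1 fell, against 2.33% of all probe sets. Il1b ranged from 29.9 to 60.3 at 0 h, with a lowest, median and highest treated signal of 32.1, 40.3 and 60.3. Tnf and Il6 were too dim to be tested. In antigen presentation 1 of 12 tested genes rose and 1 fell, against 4.96% and 4.33% of all probe sets. The class II chain RT1-Da fell by 0.46 ± 0.13 (adjusted p = 0.0142). RT1-DMa rose by 0.77 ± 0.22, not passing without 5 h replicate 2, and the other 10 did not pass.

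Acute-phase and tubular injury genes rose in 4 of 14 and fell in 0, against 4.96% and 4.33% of all probe sets. Lcn2 encodes neutrophil gelatinase-associated lipocalin, a glucocorticoid-induced protein used as a marker of tubular injury. It read 80.5, 47.2, 24.2 and 58.0 at 0 h, 186, 3970.4 and 213 at 5 h and 400.4, 548 and 959 at 5.5 h. All treated arrays were above the untreated ones, but 5 h replicate 2 was over 4 times the next. The rise was 3.36 ± 0.83 (adjusted p = 0.00568), and 2.65 without that array (adjusted p = 0.0313). Cp (ceruloplasmin) rose by 1.26 ± 0.19 and the filament protein Vim by 1.15 ± 0.22, both also without it. Complement C3 rose by 1.95 ± 0.56 and did not pass without it (adjusted p = 0.101). Havcr1, the kidney injury molecule KIM-1, ranged from 48.7 to 217 at 0 h. Its lowest, median and highest treated signals were 53.2, 94.2 and 1814, and the difference of 0.84 ± 0.84 did not pass.

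Of 13 immediate early and stress factors 3 rose and 0 fell, against 4.96% and 4.33% of all probe sets. Gadd45b, Klf2 and Gadd45a rose by 2.25 ± 0.46, 0.91 ± 0.27 and 0.79 ± 0.23, the last not without 5 h replicate 2. The other 10 did not pass. Of 20 chaperones and stress genes of the endoplasmic reticulum 4 rose, against 4.96% of all probe sets. Herpud1, which takes part in the degradation of misfolded proteins, gave 224, 333, 261 and 264 at 0 h, 1116, 1049 and 965 at 5 h and 1349, 1407 and 1036 at 5.5 h and rose by 2.06 ± 0.21 (adjusted p = 1.05e-09). Dnajb9 rose by 0.97 ± 0.23, while Hspa5 (BiP, 0.86 ± 0.26) and Atf4 (0.67 ± 0.22) did not pass without 5 h replicate 2 (adjusted p = 0.130 and 0.214). Among 14 heat shock proteins 2 rose and 0 fell, against 4.96% and 4.33% of all probe sets. Hspb1 rose by 1.58 ± 0.27 and Hsph1 by 0.58 ± 0.18, the latter not without 5 h replicate 2.

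Genes of tissues near the kidney served as a check for other material. Of 3 tested liver markers 1 rose and 0 fell, against 4.96% and 4.33% of all probe sets. The 1 that rose was Apoh, a plasma glycoprotein. It read 85.3, 79.4, 88.6 and 54.0 at 0 h, 212, 97.5 and 204 at 5 h and 288, 225 and 221 at 5.5 h. Its difference was 1.31 ± 0.27 (adjusted p = 0.000684). Alb, the defining liver marker, was too dim to be tested, with signals of 22.05 to 107.8. The summed signal of the 9 liver genes ranged from 340 to 438 at 0 h and was 365 on 5 h replicate 2. On the other 5 treated arrays it ranged from 496 to 607, above all untreated ones. Apoh is part of this sum and read 204 to 288 on these 5 arrays. The sum therefore does not show a rise of the other liver genes. None of the tested markers of adrenal gland (1), erythrocytes (3) and skeletal muscle (1) passed, and none of the adipose markers was bright enough to test. The summed erythrocyte signal ranged from 1191 to 1414 at 0 h and was 2062 on 5 h replicate 2. On the other 5 treated arrays it ranged from 477 to 1234. As defining kidney markers, Umod of the thick limb read 2933 to 3343 at 0 h and Lrp2 of the proximal tubule 2340 to 2505.

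**Figure D3:**
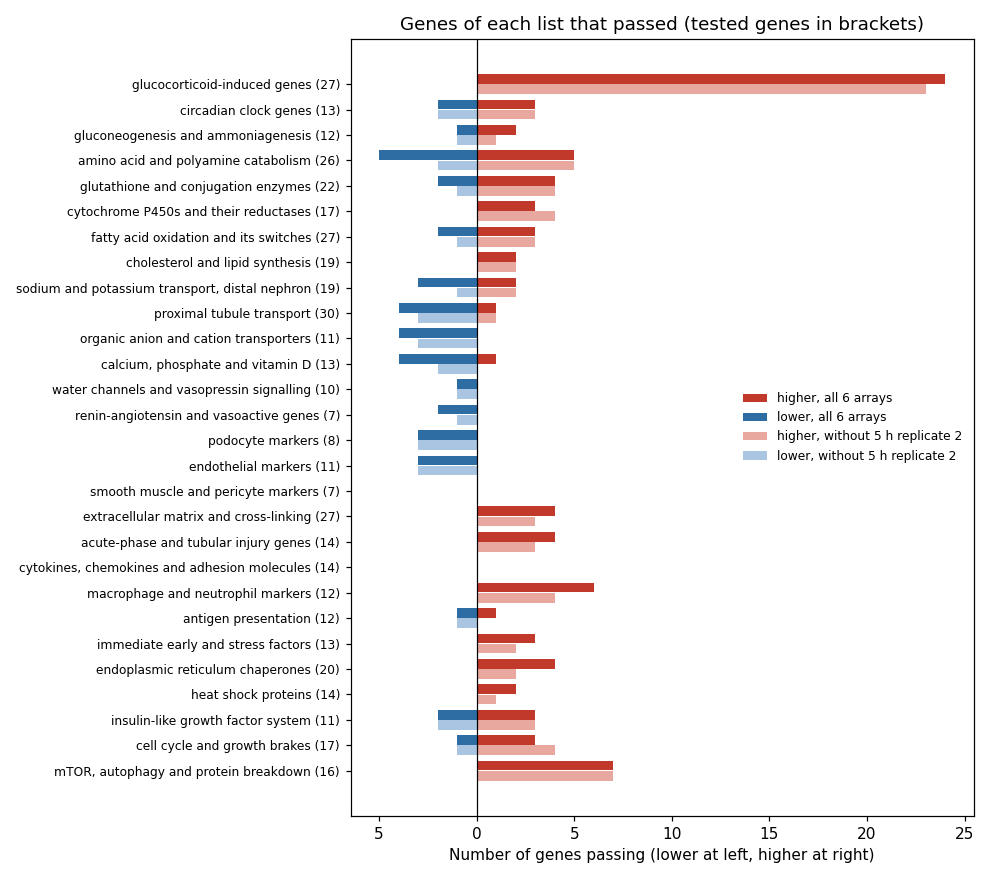
Number of genes of each list that passed for the mean of 5 and 5.5 h against 0 h, decreases to the left and increases to the right, with all 6 treated arrays (dark) and without 5 h replicate 2 (light); tested genes are in brackets and lists with under 7 are not drawn. Glucocorticoid-induced genes have 24 increases with that array and 23 without, and macrophage and neutrophil markers 6 and 4.

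The array 5 h replicate 2 was far above the other arrays of 0, 5 and 5.5 h for several acute-phase genes. The fibrinogen chains Fga and Fgg, acute-phase products, read 68.5, 11.4, 50.4 and 36.6 at 0 h, 70.2, 4459 and 30.3 at 5 h and 133, 86.7 and 119.7 at 5.5 h for Fga and 40.9, 24.8, 5.04 and 17.7 at 0 h, 44.8, 4163 and 20.8 at 5 h and 82.0, 54.5 and 96.0 at 5.5 h for Fgg. Neither passed for the mean with this array included (adjusted p = 0.346 and 0.280). Hmox1, heme oxygenase 1, read 3417 there and between 59.0 and 90.6 on the other 9 arrays. The interferon-induced chemokine Cxcl10 read 1230 there and at most 66.8 elsewhere.

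Other genes were lowest on it. Umod, uromodulin of the thick limb, read 1546 there against 2862 to 3418 in the other treated arrays, and the collecting duct water channel Aqp2 142. The summed acute-phase and injury signal was 29805 there, against 4009 to 8387 in the other 5 treated arrays and 2315 to 4594 at 0 h. For the organic ion transporters the sum was 4251 there, against 5038 to 5424 and 6810 to 7131. At 4 h, the probe set of Fga that read 4459 on this array read 2149, 1863 and 2041. What set this array apart was not tested.

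**Figure D4:**
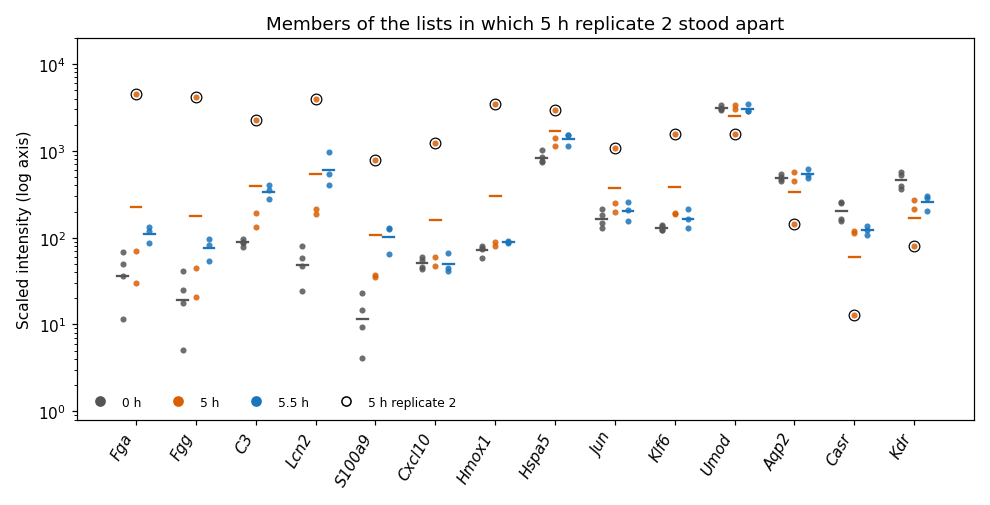
Signals of 14 list members, picked after their values were seen to show 5 h replicate 2 (circled); log axis, one point per array, bar at the back-transformed log2 mean of each group (0 h grey, n = 4; 5 h orange, n = 3; 5.5 h blue, n = 3). For Fga, Fgg, C3, Lcn2, S100a9, Cxcl10 and Hmox1 the circled point lies far above the rest, and for Umod, Aqp2, Casr and Kdr below them.

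The 5 h and 5.5 h arrays were compared directly, without the 0 h arrays. No probe set passed in either direction (limma; 504 at an unadjusted p under 0.05; smallest adjusted p = 0.374; also 0 with weights for array quality). The median half-width of the 95% interval was 0.42 log2 units, which limits the differences that could be detected. Examples of wide gaps, picked after their values were seen, were Cxcl13, a B cell chemokine, and Sult1a1. Cxcl13 read 116, 164 and 102 at 5 h and 741, 793 and 305 at 5.5 h, a difference of 2.11 ± 0.65 (adjusted p = 0.900). For Sult1a1 the difference was 1.29 ± 0.37 (adjusted p = 0.795). Neither passed, although the 3 arrays at 5 h were below the 3 at 5.5 h for both genes, as in 3.67% of all probe sets.

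Of the 28 genes with the largest changes, 26 passed at 5 h alone (all but Igfbp1 and Gclc). At 5.5 h alone 25 passed (all but Rasd1, Slc34a1 and Igfbp5). They were chosen by the mean of both times on these same arrays, so these counts are no independent evidence. Of all probe sets, 3.42% were higher and 3.47% lower at 5 h, and 3.34% and 2.33% at 5.5 h. With the replicate number as a block shared by all times, 21 of the 28 passed at 5.5 h. Lcn2, Igfbp1, Dbp and Slc2a13 were then at adjusted p = 0.0531, 0.0603, 0.0569 and 0.0524. Only 0 h has a replicate 4, so this block takes 0 h replicate 4 out of the comparison. A pairing and the loss of that array cannot be told apart in it. At 5 h without replicate 2, 20 passed; the 8 others were Lcn2, Rasd1, Igfbp1, Cebpb, Dbp, Slc34a1, Gclc and Slc2a13.

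Neighbouring times gave no passing difference in the fit of all times. Against the 3 arrays at 4 h, 0 probe sets passed (limma; 1417 at an unadjusted p under 0.05; smallest adjusted p = 0.0908), and against the 3 at 6 h also 0 (531; smallest adjusted p = 0.287). With weights for array quality the counts were 848 higher and 599 lower against 4 h, and 21 and 29 against 6 h. The count against 4 h depended on single arrays: it was 149 higher and 46 lower without 4 h replicate 1, and 5 higher and 1 lower without 5 h replicate 2. Without 6 h replicate 1, 12 were higher and 17 lower than at 6 h. In the order 4, 5, 5.5 and 6 h, the back-transformed log2 mean signal of Igfbp1 was 4484, 1444, 2238 and 3014. That of Lcn2 was 1876, 546, 595 and 352. Both 5 h means include replicate 2, which raised them. It read 6056 for Igfbp1, against 1054 and 467 on replicates 1 and 3, and 3970 for Lcn2, against 186 and 213. Fkbp5 stayed between 548 and 658 at these 4 times, and Ccn2 between 2999 and 3446.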

How the data were processed

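Total RNA of rat kidney was measured on oligonucleotide arrays. The deposited values are intensities that the authors had scaled per array, since the mean after trimming 2% at each end was 150.03 to 150.04 in every array used; the summarisation algorithm, the array images and the genome build are not given in the sources used here. Their number of arrays limits the precision. The 57 control probe sets were left out of 15923. From the deposited intensities, log2(intensity + 7.55) was computed here, 7.55 being the 10th percentile of the table, and limma 3.58.1 (R 4.3.3) was run on the 9520 probe sets whose mean reached the 40th percentile (lmFit, eBayes with a trend, Benjamini-Hochberg). All 17 times entered 1 fit of 52 arrays. A repeat array with degraded RNA and the 10 arrays of a second type were left out. The fit was tested on simulated data.

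Gene names are those of the platform annotation, updated through gene IDs with RefSeq (GRCr8): 12783 probe sets had 1 symbol, 312 several and 2771 none. Named genes are the 14 with the largest increase and the 14 with the largest decrease for the mean of both times, among probe sets with 1 symbol, an adjusted p under 0.05 and groups that do not overlap, each by its most changed probe set; no probe set met this rule between times. Members of 34 gene lists (645 genes, 551 on the array, 432 tested) are given by the probe set with the highest mean level. The comparison and the lists were chosen with earlier results of these data known, and some genes are on several lists. List counts beside the shares of all probe sets are therefore no independent evidence.

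Sample numbers were checked for pairing: deviations from the group means correlated at 0.33, 0.11 and 0.32 between same-numbered arrays of 0 and 5.5 h, and at -0.08, 0.06 and -0.03 between 0 and 5 h. Between 5.5 and 6 h the correlations were 0.32, -0.02 and 0.37. From the data and not the labels, the number may therefore pair samples at 5.5 h, but the main fit used no pairing. The number was entered only as an alternative, as a block shared by all times. Alternatives were other pseudocounts, no filter, quantile normalization, other moderation, array weights, the degraded array, the groups compared alone, the sample number as a block, and each array left out in turn.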

Additional observations from a re-analysis of the deposited data

Results flagged for a closer look

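At 0 h, replicate 2 stood apart from the other 3 arrays for 2 genes: its signal was 21.07 for Spsb1, against 5.92 to 7.77, and 44.65 for Per1, against 12.9 to 13.2. The gap to the nearest array, as a share of the range, was above Dixon's 95% critical value for 4 arrays in these 2 of the 28 groups examined. Chance flags about 1 in 20 groups. Both genes lay above this array on all 6 treated arrays, which the rule for named genes requires.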

How the results depend on the processing

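Of 616 pairs of a named gene and an alternative (28 genes, 22 alternatives), 0 reversed and 3 lost the call: Dbp with the compared groups alone (adjusted p = 0.0526), and Slc34a1 with these alone (0.0701) and without 5 h replicate 2 (0.0639). The 28 genes were chosen by their calls and by groups that do not overlap on these same arrays. Most alternatives could therefore not reverse a sign, so these numbers are no independent evidence. Counts of passing probe sets depended more on the setting. With the compared groups alone, 306 were higher and 235 lower for the mean, and 102 and 68 at 5 h; leaving out 5 h replicate 2 as well, which was chosen after seeing the data, gave 199 and 119 at 5 h and 21 and 97 against 4 h. Array weights gave 209 lower at 5 h, 578 higher and 550 lower at 5.5 h, 848 and 599 against 4 h and 21 and 29 against 6 h. Without the filter, 1 was lower than at 4 h. Leaving out each array in turn gave 340 to 487 higher and 270 to 485 lower for the mean, 216 to 350 and 118 to 423 at 5 h, 205 to 287 and 112 to 185 at 5.5 h, 0 to 0 and 0 to 0 for 5.5 h against 5 h, 0 to 149 and 0 to 46 against 4 h, and 0 to 12 and 0 to 17 against 6 h. The arrays that moved a count by over 1.5 times were 0 h replicate 3 (270 lower for the mean, 198 at 5 h, 144 at 5.5 h), 0 h replicate 2 (211 lower at 5 h), 5 h replicate 2 (216 higher and 118 lower at 5 h), 5.5 h replicate 1 (135 lower at 5.5 h) and 5.5 h replicate 2 (205 higher and 112 lower at 5.5 h), beside 4 h replicate 1, 5 h replicate 2 and 6 h replicate 1 for the neighbouring times. With the sample number as a replicate block, counts were 402 and 340 for the mean and 294 and 284 at 5 h. At 5.5 h they were 281 and 162, and 0 between times. This block also takes 0 h replicate 4 out of the comparisons with 0 h, since no other time has that number. The causes were not tested. Dim probe sets, near the pseudocount, give the least precise differences.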
